A study of Mus musculus with 6 samples.

Results

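Potassium channel genes were taken as the genes of the deposited table whose names carry a family letter code and a number after the root *Kcn*, without *Kcnj8*. The rule used names only. It gave 69 of 19270 genes, of which 67 encode a protein in the GENCODE vM21 annotation and 2, *Kcnq1ot1* and *Kcnmb4os2*, are antisense transcripts that share the name of a channel gene. RNA came from proximal incisor tissue, dissected as mesenchyme, of 3 control and 3 mutant mice and was sequenced in bulk. All mice received tamoxifen when 1 month old, and tissue was taken 4 days after the treatment. The mutants were *Gli1-CreER;Arid1bfl/fl* mice, in which tamoxifen activates a Cre recombinase driven by *Gli1* so that cells of the GLI1+ lineage, epithelial as well as mesenchymal, lose *Arid1b*. The control mice are labelled wild type, while the study's methods give them as *Arid1bfl/fl* mice without naming a Cre allele. The question here was which potassium channel genes the tissue expressed and how their levels differed after the loss of *Arid1b*.

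Potassium channels let potassium ions pass down their gradient through the cell membrane and so set the resting potential and end electrical signals. Their genes fall into voltage-gated channels (Kv), inward rectifiers (Kir, the *Kcnj* family), tandem-pore leak channels (K2P, the *Kcnk* family) and the Slo and SK channels, most of which open on intracellular calcium or sodium, with auxiliary subunits that change gating and trafficking. In teeth, potassium channels are known from odontoblasts, pulp cells, nerve fibres and the ameloblasts that secrete enamel.

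The values are the authors' group means of normalized signal, 1 for the controls and 1 for the mutants per gene. Values per gene and mouse were not analysed here. The means therefore carry no SD, no test between the groups was run, and "higher" or "lower" refers to the means alone. In whole tissue, fewer cells of a type and less RNA per cell cannot be told apart for any gene named here. Beside counts of members past 1.5-fold stands the share of all genes past the same fold, except where other folds or a pseudocount were tried. From the lowest values of each library, 1 read was taken to be worth about 0.0259 of signal in controls and 0.0231 in mutants. The libraries would then hold 37.1 to 49.6 M reads on these genes. This reading is an inference, and intervals made from it cover counting error only, not the spread between mice.

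The targeted gene *Arid1b* (chromosome 17 of GRCm38, 4994332 to 5347656) averaged 97.6 in controls against 38.0 in mutants. Other transcripts also separated the group means. All 10 listed markers of dental epithelium were over 1.5-fold higher in the mutants, with summed means of 547.4 (controls) and 1186 (mutants). The Y-linked transcripts *Ddx3y*, *Eif2s3y*, *Uty* and *Kdm5d* averaged 25.3 to 65.3 in mutants and were under the value of 3 reads per library in controls, and *Xist* averaged 3368 and 813.8 respectively. Sex and genotype cannot be told apart in these groups. The markers of dental mesenchyme, the labelled tissue, were present in both groups, with *Col1a1* at 21211 and 17127.

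Most potassium channel genes were expressed at low levels. The median of the 69 genes was 1.57 in controls and 2.45 in mutants, against 12.2 and 12.6 over all genes. A mean above 10 in either group was reached by 14 of the 69 (20.3%), compared with 54.6% of all genes. Of these 14, 11 were above 10 in both groups, and *Kcnd3* and *Kcnf1* in the mutants alone. Members just inside this threshold included *Kcnd3* and *Kcnf1*, with higher means of 12.3 and 11.3, and those just outside were *Kcnn2*, *Kcnd1* and *Kcng1*, at 9.43, 8.43 and 7.97. A mean over both groups below 1 was found for 23 members, and these lay between 0.127 and 0.849.

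**Figure D1:**
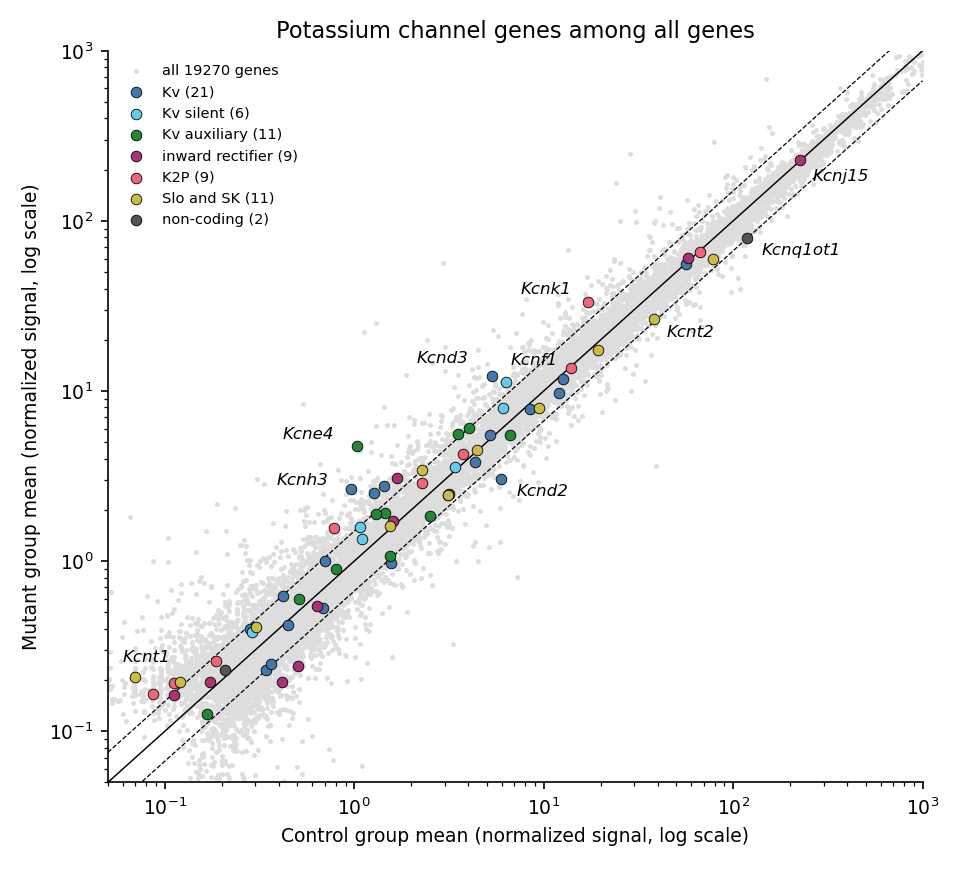
Group mean of the mutants (y axis) against that of the controls (x axis), both in normalized signal on log scales, for all 19270 genes (grey) and the 69 potassium channel genes coloured by class. Genes beyond the drawn range are not shown. The solid line marks equal means and the dashed lines 1.5-fold. *Kcnj15* lies on the solid line at the top, whereas *Kcne4*, *Kcnh3*, *Kcnd3* and *Kcnk1* lie above the upper dashed line.

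Divided by exon length, a single inward rectifier led the set. *Kcnj15*, which encodes a channel of the Kir4 group, had 35.5 per kb in controls and 36.0 per kb in mutants. It made up 28.8% and 27.1% of the summed level per kb of the 67 coding members. The K2P channel gene *Kcnk2*, whose mechanosensitive product TREK carries background current, was next in the controls with 13.5 per kb and had 13.4 per kb in the mutants, where *Kcnk1* exceeded it with 14.9 per kb. *Kcnj2*, the strong inward rectifier that holds the resting potential in heart and skeletal muscle, had 10.6 and 11.1 per kb. *Kcnh1*, a voltage-gated channel of the ether-à-go-go group, had 7.68 and 7.64 per kb. These 4 genes had nearly equal means in the groups, with log2 ratios between -0.01 and 0.07. The 5 highest coding members of each group held 60.7% of the summed level per kb in controls and 62.4% in mutants.

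**Figure D2:**
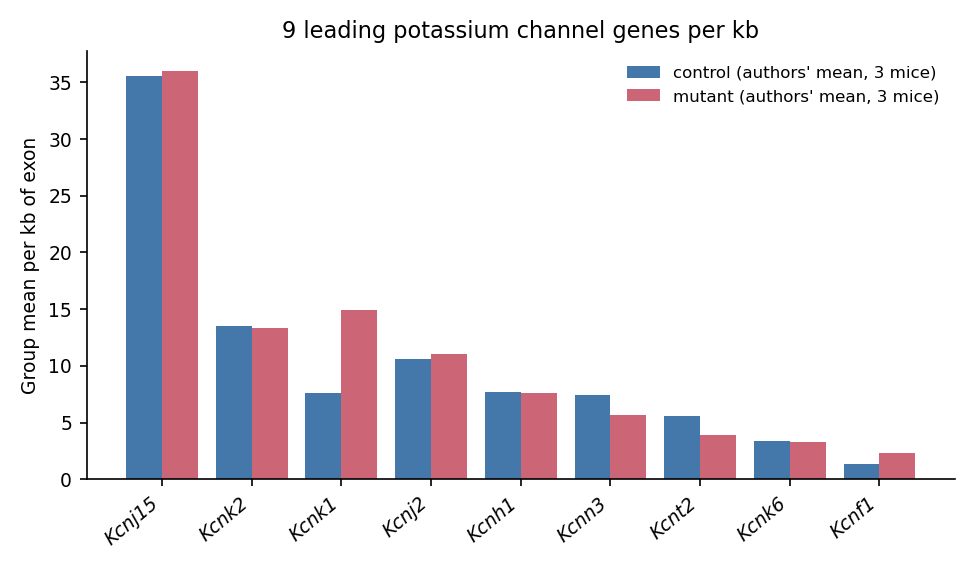
Level per kb of exon (y axis, authors' group mean of 3 mice divided by the length of all exons) of 9 leading potassium channel genes, for controls and mutants. The bars start at 0 and have no error bars because the means carry no spread. *Kcnj15* stands above the rest in both groups at 35.5 and 36.0 per kb, and *Kcnk1* has 7.63 and 14.9 per kb.

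Over all 69 members, 16 were over 1.5-fold higher in the mutants (23.2%; 7.17% of all genes) and 4 were over 1.5-fold lower (5.8%; 5.73% of all genes). The median log2 ratio was 0.11, beside 0.00 over all genes, and 41 of the 69 members had a ratio above 0 (50.5% of all genes). At a mean over both groups of at least 1, 12 of 46 members were higher (26.1%; 4.14% of all genes at this level) and 2 lower (4.35%; 1.91%). Of the 34 members with a mean over both groups of 1 to 10, 11 were over 1.5-fold higher (32.4%; 8.75% of all genes at this level) and 2 were lower (5.88%; 4.24%). Among all protein-coding genes at this level, 10.7% were over 1.5-fold higher and 4.3% lower. Within this range, 7 of 20 members at 1 to 3 were higher (11.3% of all genes) and 1 was lower (6.38%), and of the 14 members at 3 to 10, 4 were higher (6.86%) and 1 was lower (2.64%). Of the 23 members below 1, 4 were over 1.5-fold higher (17.0% of all genes) and 2 lower (18.2%). The low members thus gave shares near those of all genes or under them. Of the 12 members at 10 or more, 1 was higher (2.15% of all genes) and 0 were lower (0.912%). A ratio below 0 was found for 9 of these 12 and one above 0 for 3, beside 50.3% of all genes at this level above 0. No test of the members against all genes was run.

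**Figure D3:**
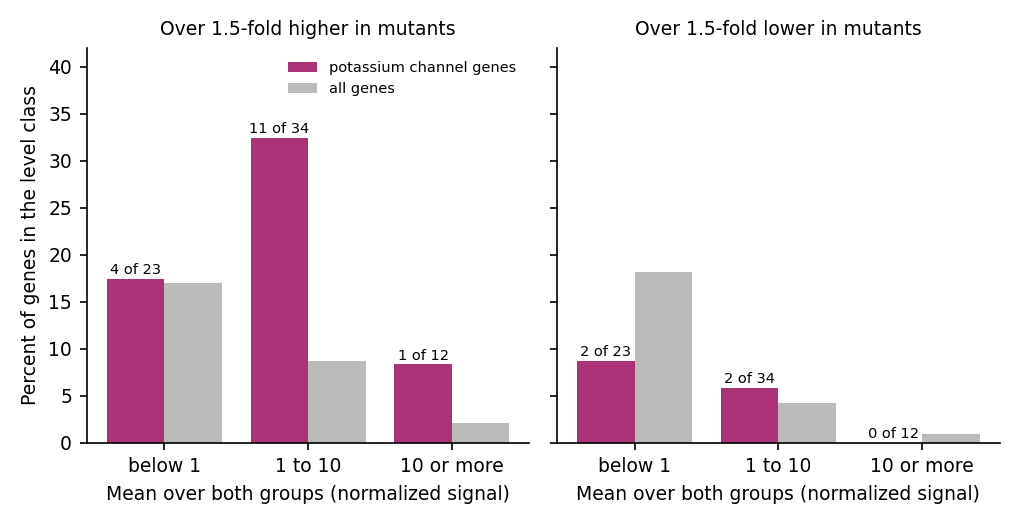
Percent of genes (y axis) over 1.5-fold higher (left) or lower (right) in the mutants by mean over both groups (x axis, normalized signal), for potassium channel genes and all genes, with the count of members above their bars. At means of 1 to 10 on the left, the members stand at 32.4% and all genes at 8.75%.

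Genes of other ion channels did not all show this split. At the same level of 1 to 10, where 8.75% of all genes were over 1.5-fold higher, 0 of 8 calcium channel genes (*Cacn*) passed this fold, as did 1 of 11 transient receptor potential channel genes (*Trp*), 2 of 8 sodium channel genes (*Scn*), 2 of 4 chloride channel genes (*Clcn*, *Clic* and *Ano*) and 2 of 18 genes of receptor channels for neurotransmitters. Their median log2 ratios at this level were -0.20, 0.08, -0.32, 0.53 and -0.13, compared with 0.24 for the potassium channel genes. These groups are small and the differences between them were not tested.

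Among the voltage-gated channels, 4 of 21 genes were over 1.5-fold higher (7.17% of all genes) and 2 were lower (5.73%), while 13 had a ratio below 0 and 8 above it (50.5% of all genes above it). The *Kcnd* family encodes the Kv4 subunits that carry fast transient A-type current, and its 3 genes had different ratios. *Kcnd3* (chromosome 3 of GRCm38, 105452330 to 105674002, plus strand) had means of 5.32 in controls and 12.3 in mutants, a log2 ratio of 1.21 with a 95% counting interval of 1.08 to 1.35. The antisense gene *Kcnd3os* overlaps 165 of its 9587 exon bases. *Kcnd2* (chromosome 6, 21215503 to 21729805, plus strand) had means of 5.99 and 3.02, a log2 ratio of -0.99 with a counting interval of -1.17 to -0.81. *Kcnd1*, on the X chromosome, had 8.43 and 7.80. The family as a whole had summed means of 19.7 in controls and 23.1 in mutants. Per kb of exon the sum was 3.31 in controls and 3.35 in mutants. By this measure, which depends on the exon lengths used, the means differed mainly in which paralog made up the sum. *Kcnd2* supplied 35.1% of the sum per kb in controls and 17.5% in mutants, and *Kcnd3* supplied 16.8% and 38.4%.

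The partners of Kv4 channels also lay on different sides of equality. All 4 *Kcnip* genes, which encode calcium-binding KChIP subunits that raise Kv4 current, had ratios above 0 (50.5% of all genes). *Kcnip3*, whose product is also known as the transcriptional repressor DREAM, had means of 3.53 and 5.58 with a log2 ratio of 0.66. *Kcnip4* had 4.04 and 6.09, just past the threshold at 1.51-fold. *Kcnip2* had 1.29 and 1.90, just short of it at 1.46-fold. *Kcnip1* had 0.511 and 0.602, and its counting interval of -0.24 to 0.79 on the log2 scale included 0. The Kv4 partners *Dpp6* and *Dpp10*, which are not *Kcn* genes, had log2 ratios of -0.38 and -0.35. Their means were 0.958 and 0.736 for *Dpp6*, and 3.12 and 2.44 for *Dpp10*. Neither was past 1.5-fold, and no counting intervals were computed for them.

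**Figure D4:**
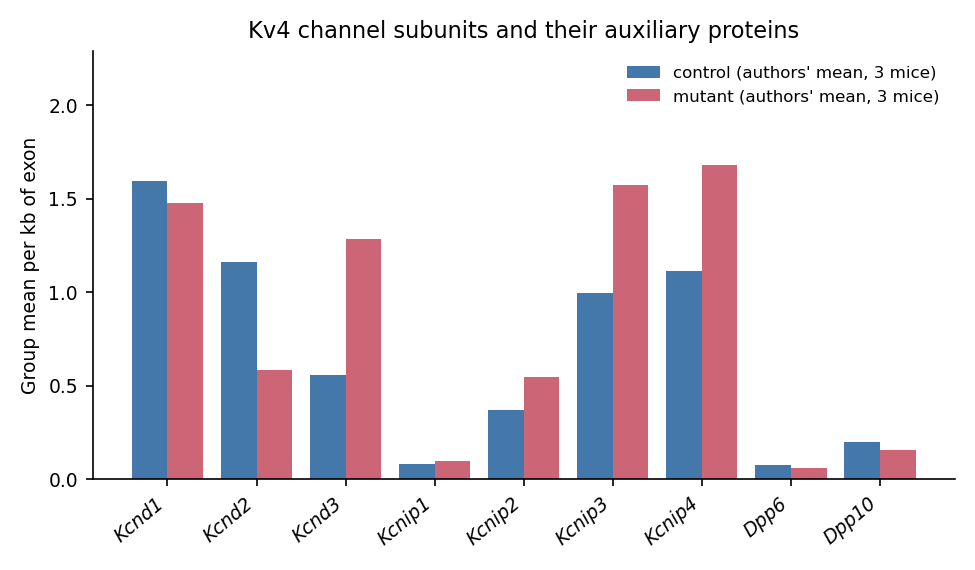
Level per kb of exon (y axis, authors' group means of 3 mice) of the 3 Kv4 subunit genes, the 4 KChIP genes and *Dpp6* and *Dpp10*, for controls and mutants. *Kcnd3* is at 0.555 and 1.29 per kb and *Kcnd2* at 1.16 and 0.587 per kb, and the bars have no error bars because the means carry no spread.

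The sequences before the starts of 4 members with large ratios are shown because *Kcnd2* and *Kcnd3* are paralogs with opposite ratios, and *Kcnk1* and *Kcne4* had the largest ratios among the K2P and auxiliary genes with a mean over 1 in both groups. They are RefSeq sequences of GRCm38.p6, 5′ to 3′, from the bases before both the RefSeq and the GENCODE start, with CG dinucleotides in capitals.
Kcnd2, chr6:21215096-21215345, plus strand: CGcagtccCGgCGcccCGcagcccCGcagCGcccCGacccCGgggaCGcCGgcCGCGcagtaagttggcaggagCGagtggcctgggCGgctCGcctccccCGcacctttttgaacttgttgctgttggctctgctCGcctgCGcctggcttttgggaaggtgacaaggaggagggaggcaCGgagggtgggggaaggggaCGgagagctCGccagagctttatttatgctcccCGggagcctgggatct
Kcnd3, chr3:105451640-105451889, plus strand: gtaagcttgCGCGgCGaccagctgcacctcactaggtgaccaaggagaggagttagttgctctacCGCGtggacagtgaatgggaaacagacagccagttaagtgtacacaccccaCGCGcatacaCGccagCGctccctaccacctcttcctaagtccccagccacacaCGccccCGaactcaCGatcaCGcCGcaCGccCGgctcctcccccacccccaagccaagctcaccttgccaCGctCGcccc
Kcnk1, chr8:125994852-125995101, plus strand: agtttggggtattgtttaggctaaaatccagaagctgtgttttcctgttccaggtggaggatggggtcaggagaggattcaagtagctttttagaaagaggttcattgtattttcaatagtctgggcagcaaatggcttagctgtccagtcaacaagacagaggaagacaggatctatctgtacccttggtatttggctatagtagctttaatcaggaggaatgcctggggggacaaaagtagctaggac
Kcne4, chr1:78816661-78816757, plus strand: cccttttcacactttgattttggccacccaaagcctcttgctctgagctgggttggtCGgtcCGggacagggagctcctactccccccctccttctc
In the 250 bases before the RefSeq start, *Kcnd2* had 22 CG dinucleotides, *Kcnd3* 18, *Kcne4* 7 and *Kcnk1* 0. For *Kcne4* these 250 bases run to 78816910, past its GENCODE start. Only 97 of them are shown above, so its count also covers bases that are not shown. RefSeq windows were found for 50 of the 69 genes, 70 windows in all because some genes have several starts. They held a median of 8 CG dinucleotides, beside 6 over all 32851 windows, and 44.3% held 10 or more, beside 37.8%. On either strand, TATAAA was found in 2 of the 70 windows (2.86%; 12.4% of all windows). TGANTCA, the letters of the AP-1 motif, was found in 4 (5.71%; 6.75% of all windows), which belong to *Kcne3*, *Kcnip3*, *Kcnip4* and *Kcnk2*.

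The other voltage-gated genes over 1.5-fold higher were *Kcnh3*, *Kcna3* and *Kcnq1*, all of low level. *Kcnh3*, of the ether-à-go-go-like group known mainly from the forebrain, had means of 0.967 and 2.65, a log2 ratio of 1.45 with a counting interval of 1.17 to 1.81. *Kcna3*, the delayed rectifier known from lymphocytes and macrophages, had means of 1.27 and 2.51. *Kcnq1*, the slow delayed rectifier of heart and of secretory epithelia, had means of 1.44 and 2.78. The 5 listed macrophage markers were all below 1.5-fold, with a summed mean of 206.1 in controls and 232.8 in mutants. All 5 had ratios above 0 (50.5% of all genes). Lymphocyte markers were not listed, and the part of either cell type in the *Kcna3* means was not tested. On the other side, *Kcnq5*, which carries M-type current, had means of 1.57 and 0.981, a log2 ratio of -0.68.

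The *Kcnq1* locus also gave the second largest mean of the set. *Kcnq1ot1* (chromosome 7, 143203458 to 143296549, minus strand), the imprinted non-coding RNA transcribed from within *Kcnq1* on the paternal chromosome, had means of 118.4 in controls and 79.2 in mutants. It was 1.49-fold lower, just short of the threshold, with a log2 ratio of -0.58 and a counting interval of -0.62 to -0.54. Its exon is 93092 bases long, so that its level per kb was only 1.27 and 0.851. Its ratio and that of *Kcnq1*, at 0.94, had opposite signs, and 121 bases of *Kcnq1* exons overlap it on the other strand. Whether reads were counted by strand is not given in the sources used here, so reads from this overlap may have been counted for either gene.

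The silent Kv subunits, which form no channel alone and modify other Kv channels, all had ratios above 0 (6 of 6 genes; 50.5% of all genes), although 1 of them was past 1.5-fold (12.9% of all genes in either direction). This was *Kcnf1* (chromosome 12, 17172100 to 17176888, minus strand), with means of 6.35 and 11.3, a log2 ratio of 0.83 with a counting interval of 0.71 to 0.96. *Kcng1* had 6.12 and 7.97, and *Kcns3* had 3.38 and 3.55, with log2 ratios of 0.38 and 0.07.

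The auxiliary gene *Kcne4* had the largest ratio of the set. *Kcne4* (chromosome 1, 78816758 to 78820028, plus strand) encodes a small membrane protein that inhibits several Kv channels, the product of *Kcnq1* among them. Its means were 1.04 in controls and 4.77 in mutants, which is 4.60-fold higher, from about 117 and 628 estimated reads over the 3 libraries of each group. The log2 ratio was 2.20 with a counting interval of 1.95 to 2.53. The other 3 members of its family had ratios below 0. *Kcne3*, which keeps the *Kcnq1* channel open in epithelia, had 2.51 and 1.85, and the X-linked *Kcne1l* had 1.54 and 1.07. Of the genes for cytoplasmic β subunits of Kv1 channels, *Kcnab2* was the highest per kb, with a log2 ratio of -0.25.

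**Figure D5:**
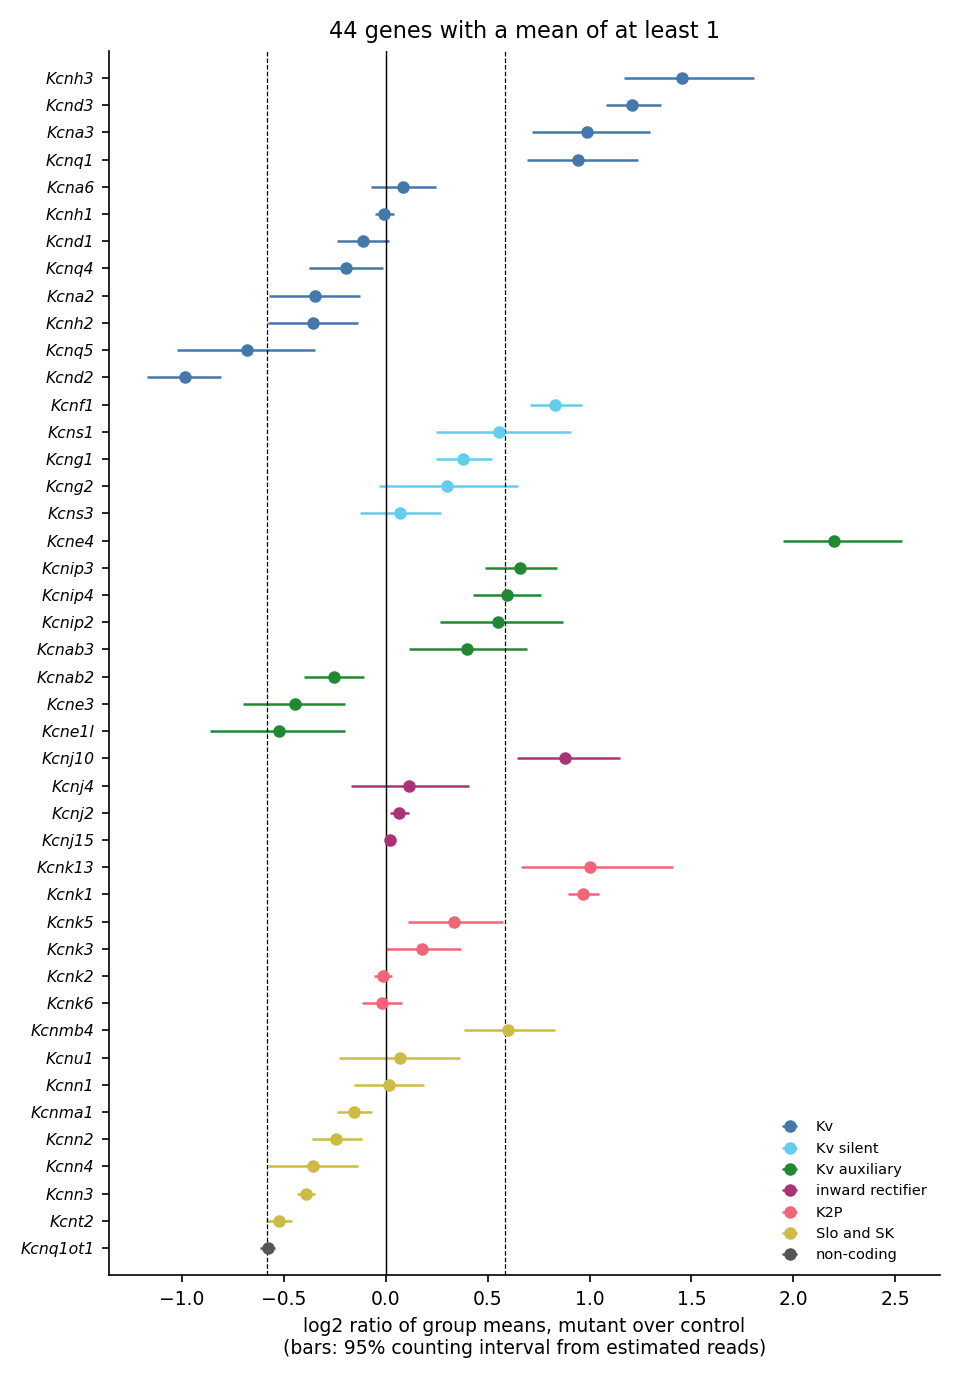
Log2 ratio of the group means, mutant over control (x axis), of 44 of the 46 members with a mean over both groups of at least 1, ordered by class. The other 2 are not shown. Bars are 95% counting intervals from estimated reads and do not cover the spread between mice, and dashed lines mark 1.5-fold. *Kcne4* lies furthest right at 2.20 and *Kcnd2* furthest left at -0.99.

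Of the K2P leak channels, 4 of 9 genes were over 1.5-fold higher (7.17% of all genes, and 17.0% of those with a mean below 1, where 2 of the 4 lie) and 0 were lower (5.73% of all genes), and their share of the summed level per kb was 21.5% in controls and 25.8% in mutants. *Kcnk1* (chromosome 8, 125995170 to 126030685, plus strand), which encodes the weak leak channel TWIK, had means of 17.1 and 33.4, a log2 ratio of 0.97 with a counting interval of 0.89 to 1.05, and 179 of its 2235 exon bases overlap an antisense gene. It was the one member with a mean over both groups of at least 10 that was past 1.5-fold, a threshold that 3.06% of all genes at this level passed in either direction. Its close relative *Kcnk6* had 13.9 and 13.7, and *Kcnk2* had a log2 ratio of -0.01, so these abundant K2P genes did not share its ratio. *Kcnk13*, known from microglia, had 0.785 and 1.57. The other 2 were *Kcnk7* and *Kcnk12*, both with means below 0.2, and the control mean of *Kcnk12* was under the value of 3 reads per library.

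The inward rectifiers, whose leading members *Kcnj15* and *Kcnj2* had nearly equal means, held 1 gene of 9 over 1.5-fold higher (7.17% of all genes) and 2 lower (5.73%). Both lower genes had means below 1, where 18.2% of all genes were lower. *Kcnj10*, known from potassium buffering by glia, had means of 1.68 and 3.10, a log2 ratio of 0.88. *Kcnj12* and *Kcnj13* had 0.414 and 0.195, and 0.505 and 0.242, with log2 ratios of -1.09 and -1.06. *Kcnj12* rests on about 45.0 and 22.8 estimated reads and *Kcnj13* on 55.7 and 29.0, and 623 of the 1270 exon bases of *Kcnj13* overlap *Gigyf2* on the other strand. The 5 listed Schwann cell markers had a summed mean of 31.3 in controls and 34.3 in mutants.

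Among the classes of coding members, the Slo and SK channels were the one whose summed level per kb was clearly smaller in the mutants, at 18.2 and 14.8. This came from its 2 leading genes, neither of which was past 1.5-fold. *Kcnn3*, a small-conductance channel opened by calcium through calmodulin, had means of 78.1 and 59.5, a log2 ratio of -0.39. *Kcnt2*, a sodium-activated channel, had 38.3 and 26.7, a log2 ratio of -0.52. *Kcnma1*, the large-conductance BK channel, had 19.4 and 17.4. The BK auxiliary gene *Kcnmb4* had 2.28 and 3.44, or 1.51-fold higher, and 1048 of its 3324 exon bases overlap antisense genes. *Kcnmb2* had 0.121 and 0.194, and *Kcnt1*, whose control mean was under the value of 3 reads per library, was at least 2.02-fold higher. The counting intervals of *Kcnmb2*, *Kcnk7* and *Kcnk12* included 0, unlike those of the other 17 members past 1.5-fold. The sperm channel gene *Kcnu1* had 1.54 and 1.61.

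Of 46 other genes of potassium transport and membrane potential, 37 were in the table, and 8 were over 1.5-fold higher (7.17% of all genes) and 2 lower (5.73%). The sodium pump β subunit gene *Atp1b3*, among the highest of the list, had means of 550.9 and 446.3, and the β subunit gene *Atp1b2* had 22.5 and 18.5. The β subunit gene *Atp1b1* had 13.4 and 34.8, or 2.59-fold higher, and the pump regulator *Fxyd3* had 12.1 and 26.9. *Slc12a2*, the cotransporter that takes up sodium, potassium and chloride, had 73.4 and 121.3. The potassium-dependent sodium-calcium exchangers *Slc24a2* and *Slc24a3* had 10.6 and 20.1, and 16.6 and 27.1. Other leaders per kb, *Stk39*, *Slc12a4* and *Wnk1*, had log2 ratios of -0.29, 0.36 and -0.14.

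The marker levels beside these ratios were as follows. Of the 8 ameloblast markers, 5 were over 1.5-fold higher with summed means of 1358 and 9593. Of the 8 markers of dental mesenchyme, 1 was over 1.5-fold lower, *Gli1* with 106.4 and 46.1, and 7 had ratios below 0, with summed means of 27664 and 22401. Only the mutants are named with the *Gli1-CreER* allele, and its part in the *Gli1* means was not tested. Of the 4 odontoblast markers, 1 was over 1.5-fold lower, *Dmp1* with 68.1 and 23.7, and the summed means were 6670 and 5356. The numbers of genes over 1.5-fold higher in the other lists were as follows: endothelial (0 of 5), macrophage (0 of 5), neutrophil (0 of 5), perivascular (1 of 6), Schwann cell (1 of 5), neuronal (3 of 5, with *Nefl* under the floor in the controls), skeletal muscle (1 of 6) and osteoclast (2 of 3). In the skeletal muscle list, 3 genes were over 1.5-fold lower. The 2 osteoclast genes were *Acp5*, with 12.9 and 28.1, and *Mmp9*, with 9.25 and 16.9. The summed means of the neuronal list were 35.3 and 45.0, those of the skeletal muscle list 6.78 and 5.99, and those of the osteoclast list 101.6 and 121.0. The endothelial list had 308.1 and 311.0, the perivascular list 660.2 and 623.5, and the neutrophil list 23.3 and 18.4. The ratio of summed means was 2.17 for the epithelial and 7.07 for the ameloblast list, and between 0.787 and 1.28 for the other cell type lists. The part of the epithelial, ameloblast and sex-linked transcripts in the ratios of the potassium channel genes was not tested. The 2 X-linked members, *Kcnd1* and *Kcne1l*, had log2 ratios of -0.11 and -0.53.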

How the data were processed

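RNA-seq of 3 control and 3 mutant incisors was analysed from the deposited tables. Reads were trimmed, aligned to mm10 and compared in Partek Flow per the study's methods, and the submitters' processing notes name TopHat2 2.0.8. The counter, annotation and strand setting are not given in the sources used here. The authors deposited group means as a normalized signal, scaled to a common upper quartile (44.57 to 44.58 in every library), with p-values, FDR, ratios and fold changes of their comparison. These columns and the table filtered by them were not used.

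Log2 ratios were computed from the group means. Means not above 3 reads per library (0.103 in controls, 0.0923 in mutants) were raised to that level, so such ratios are bounds. The planned test on values per library could not be run, and the planned description of group means was used. Ratios over 1.5-fold, the fold of the study's methods, were counted beside all 19270 genes. Reads were estimated as signal divided by the lowest value of each library, minus 1, and counting intervals are exact binomial (95%). Levels per kb used the union of exons in GENCODE vM21 (GRCm38, named mm10 elsewhere), which matched 18839 genes. Of the members, 24 overlap exons on the other strand, 8 of them past 1.5-fold. In either direction, 29% of all 69 members and 12.9% of all genes were past this fold. The overlap was not computed for other genes, and its part in the ratios was not tested.

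Members and lists were chosen with earlier results of these data known, and the level classes and other channel families after the values were seen. Named genes were members with a mean above 10 in either group that were past 1.5-fold, the 10 highest per kb, the highest of each family, those with a mean of at least 1 past 1.5-fold, the 5 highest and 5 lowest ratios at a mean of at least 10, X-linked members, and, of the transport genes, the highest and those with a mean of at least 10 past 1.5-fold. *Kcnj12*, *Kcnj13*, *Kcnk7*, *Kcnk12*, *Kcnmb2*, *Kcnt1*, *Kcnip1*, *Kcnip2*, *Dpp6* and *Dpp10* were named after their values were seen. The ratio code was tested on simulated data. Scripts ran in Python 3.11.15 with pandas 2.3.3, numpy 2.4.6 and scipy 1.17.1, and figures were drawn with matplotlib 3.10.9. Some genes that the naming rule covers are not reported here.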

Additional observations from a re-analysis of the deposited data

How the results depend on the processing

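The counts of 16 higher and 4 lower members (20 in all) moved with the filter, the fold and the pseudocount. With a mean over both groups of at least 10 they were 1 and 0 (1 in all), and the median log2 ratio reversed from 0.11 to -0.057. With a mean of at least 1 there were 2 lower members, and the count of higher members stayed within 1.5 times. At 2-fold there were 5 higher and 2 lower members (7 in all), and where 1 mean exceeded the other by over 25% there were 28 and 16 (44 in all). The shares of all genes past these folds, or past 1.5-fold with the pseudocount below, were not computed, so these counts have no background. With a pseudocount of 1 there were 8 and 1 (9 in all), and *Kcnip3*, *Kcnip4*, *Kcnmb4*, *Kcnk13*, *Kcnq5*, *Kcnj12*, *Kcnj13*, *Kcnt1*, *Kcnk7*, *Kcnk12* and *Kcnmb2* were no longer past 1.5-fold, because adding 1 shrinks the ratios of weakly expressed genes. Among the 12 members at 10 or more, the share of members past 1.5-fold was 8.33%, beside 29% of all members. The share of all genes past 1.5-fold also fell, from 12.9% to 3.06% at this level. The cause of these differences was not tested. The 14 members above a mean of 10 in either group became 22 above 5 and 8 above 20. Centring on all genes and leaving out the non-coding transcripts kept the counts within 1.5 times and the sign of the median, and the order per kb kept 8 of its 10 leaders by the longest transcript and 8 by the coding length. No paired analysis was possible because each gene had 1 mean per group and no value per mouse was used, and leaving out each replicate was not run for the same reason. Depth limits the low members: 38 of the 69 have a counting interval without 0, among them 17 of the 20 past 1.5-fold, and that of *Kcnt1* runs from 0.72 to 3.88 on the log2 scale. The same count was not made over all genes. Such intervals can leave out 0 at small ratios, as for *Kcnj2* with a log2 ratio of 0.07 and an interval of 0.02 to 0.11. The spread between mice remains unknown for every value.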
